A study of Homo sapiens with 3 samples.

Results

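Imprinted genes are transcribed mainly from 1 parental chromosome, because DNA methylation set in egg or sperm is kept through cell divisions after fertilisation. Of these, 10 were examined here, and all were found by symbol among the 31113 symbols of the 3 count matrices: DLK1, MEG3, CDKN1C, SNRPN, PEG10, PEG3, MEST, H19, IGF2 and NNAT. They were chosen as a list of known imprinted genes, with earlier results of these data known. They were read as UMIs per 1000000 summed UMIs (CPM), as the share of cells with a count, and as the spread between single cells. The matrices count transcripts and do not say which parental allele a transcript came from.

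The cells were H9, an established human embryonic stem cell line, profiled by inDrop with the TruDrop protocol, which tags each captured RNA molecule with a cell barcode and a unique molecular identifier (UMI). A time course of neural progenitor differentiation was sampled with 1 library each at labelled day 0, 2 and 6. All 3 share the growth medium mTeSR and the STEMdiff SMADi Neural Induction Kit in their labels. The labels call the labelled day 0 library embryonic stem cells and the other 2 differentiated cells or neural progenitors. After filtering there were 2290, 2419 and 4180 cells with 28341741, 20626135 and 41268018 UMIs in the labelled day 0, 2 and 6 libraries. The median UMIs per cell were 8770, 3814 and 4429.

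Marker genes went against the day labels. POU5F1, the pluripotency factor OCT4, was at 2.22, 1229 and 268 CPM in the labelled day 0, 2 and 6 libraries, while the neural progenitor factor PAX6 was at 176, 6.64 and 27.9 CPM. The 8 neural progenitor markers summed to 967, 120.2 and 437 CPM in the same order, of which CDH2 alone gave 446, 47.9 and 209 CPM. In this list SIX3, LHX2, HES5, CDH2 and FABP7 had the order of PAX6. SOX1 (1.62, 0.921 and 4.85 CPM) and OTX2 (86.1, 30.6 and 105 CPM) did not, and were highest in the labelled day 6 library. The 8 pluripotency markers, among them SOX2 and LIN28A of both cell types, summed to 1728, 4396 and 3371 CPM. Neuron markers summed to 21.1, 27.3 and 113 CPM and mesenchyme markers to 58.0, 25.7 and 35.5 CPM. For this reason each value is given for the library as labelled, and no difference is read as a change over time. Markers of mesoderm, endoderm, trophoblast and tissues absent from the culture stayed low, with sums of at most 2.08, 3.54, 15.2 and 34.8 CPM, and SOX10, TBXT, HBB and CD3D were not matched. The neural crest list summed to 4.59, 29.1 and 1.09 CPM, and FOXD3 alone, which pluripotent cells also express, had 27.3 CPM in the labelled day 2 library.

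Libraries shared some cell barcodes. Among kept cells, the labelled day 2 and 0 libraries shared 38 barcodes, the labelled day 6 and 0 libraries shared 82, and the labelled day 6 and 2 libraries shared 72. Leaving them out moved 1 of 30 member ratios outside its interval.

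Imprinted genes lie in clusters that share a control region. In the DLK1 and MEG3 cluster on chromosome 14, the paternal copy gives DLK1, a membrane protein with EGF repeats related to the Notch ligands, and the maternal copy gives MEG3, a long non-coding RNA. On chromosome 11, H19 is a maternal non-coding RNA, IGF2 is a paternal growth factor gene, and CDKN1C, in a neighbouring domain, gives the maternal cyclin-dependent kinase inhibitor p57. SNRPN on chromosome 15, from the Prader-Willi region, encodes a spliceosomal protein prominent in brain. PEG10 on chromosome 7 derives from a retrotransposon, MEST on the same chromosome encodes a hydrolase-like protein, PEG3 on chromosome 19 a zinc finger protein, and NNAT on chromosome 20 neuronatin, a small membrane protein of developing brain. These last 5 are expressed from the paternal copy.

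On GRCh38 with GENCODE 29, DLK1 spans 100725705 to 100738224 and MEG3 spans 100779410 to 100861031 of chromosome 14, both on the plus strand, with 41185 bases between them. H19 spans 1995176 to 2001470 of chromosome 11 on the minus strand and lies 127641 bases from IGF2, while CDKN1C spans 2883213 to 2885773 on the same strand. SNRPN spans 24823637 to 24978723 of chromosome 15 on the plus strand, and its 3′ end overlaps the host transcript SNHG14. PEG10 spans 94656325 to 94669695 and MEST 130486171 to 130506465 of chromosome 7, both on the plus strand. PEG3 spans 56810077 to 56840728 of chromosome 19 on the minus strand, and NNAT spans 37521206 to 37523693 of chromosome 20 on the plus strand, inside the span of BLCAP on the other strand.

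Promoter windows were held by the RefSeq table (GRCh38.p14) for 4 of the 10 genes. The windows of MEG3, SNRPN and MEST are shown because methylation on 1 parental copy near starts of these genes is textbook knowledge, and because MEG3 and SNRPN, of the genes above 10 CPM that have a window, differed most between libraries and in opposite directions. Each is the 250 bases before a transcript start, 5′ to 3′ on the strand of the gene, with every CG in capitals. The search was for the letters CG, which read the same on both strands. For each gene the window with most CG is given, and for MEST 2 windows with equal numbers. As the window of a gene was picked by its CG count alone, it need not lie where 1 parental copy is methylated.
MEG3, chr14:100825858-100826107, plus strand: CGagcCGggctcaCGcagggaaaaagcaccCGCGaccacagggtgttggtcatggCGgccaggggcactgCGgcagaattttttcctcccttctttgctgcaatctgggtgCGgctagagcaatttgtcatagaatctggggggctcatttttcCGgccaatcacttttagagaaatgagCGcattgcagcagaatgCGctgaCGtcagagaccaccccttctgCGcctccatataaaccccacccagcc
SNRPN, chr15:24954737-24954986, plus strand: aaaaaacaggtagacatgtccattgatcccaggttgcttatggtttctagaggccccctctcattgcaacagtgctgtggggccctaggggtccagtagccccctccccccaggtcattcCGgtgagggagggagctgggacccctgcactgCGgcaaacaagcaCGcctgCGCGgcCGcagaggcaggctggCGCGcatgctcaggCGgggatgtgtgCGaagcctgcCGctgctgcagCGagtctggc
MEST, upstream start, chr7:130486097-130486346, plus strand: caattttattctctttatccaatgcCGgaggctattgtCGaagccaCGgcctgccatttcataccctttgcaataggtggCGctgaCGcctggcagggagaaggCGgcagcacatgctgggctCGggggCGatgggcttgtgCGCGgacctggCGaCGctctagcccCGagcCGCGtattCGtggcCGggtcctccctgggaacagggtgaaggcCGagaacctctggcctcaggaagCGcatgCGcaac
MEST, downstream start, chr7:130491835-130492084, plus strand: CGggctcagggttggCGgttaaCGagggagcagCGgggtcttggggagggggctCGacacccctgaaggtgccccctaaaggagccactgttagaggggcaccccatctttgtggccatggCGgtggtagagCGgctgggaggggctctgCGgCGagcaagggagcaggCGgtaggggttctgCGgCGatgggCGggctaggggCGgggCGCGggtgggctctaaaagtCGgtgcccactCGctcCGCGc
The MEG3 window held 13 CG and the SNRPN window 12, near the median of 11 over 35116 promoter windows of the same length. At least as many CG were in 46.6% of these windows for MEG3 and in 48.5% for SNRPN. The 2 MEST windows held 20 each, a number reached by 32.4% of windows. Methylation was not measured in these libraries.

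Some members also carry microRNAs, whose mature forms are shown because they lie within the spans of host genes counted below. In RefSeq (GRCh38.p14), miR-335 lies in an intron of MEST, miR-675 in an exon of H19 and miR-770 within MEG3. The capitals mark the seed, bases 2 to 8.
hsa-miR-335-5p: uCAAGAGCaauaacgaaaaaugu
hsa-miR-675-5p: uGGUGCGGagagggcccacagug
hsa-miR-770-5p: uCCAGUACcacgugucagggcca
The 3 seeds differ from each other. Mature microRNA levels were not analysed here.

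Of the 10 genes, 7 reached 10 CPM in at least 1 library, as did 10574 genes in all, and every member had at least 1 UMI in each library. H19, IGF2 and PEG3 stayed below 10 CPM throughout. A ratio of CPM was called past 2-fold only among genes with at least 10 CPM in 1 of the 2 libraries. Because each labelled day has only 1 library, no test between days and no replicate error can be given. The 95% intervals describe counting error, not the variation from culture to culture.

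**Figure D1:**
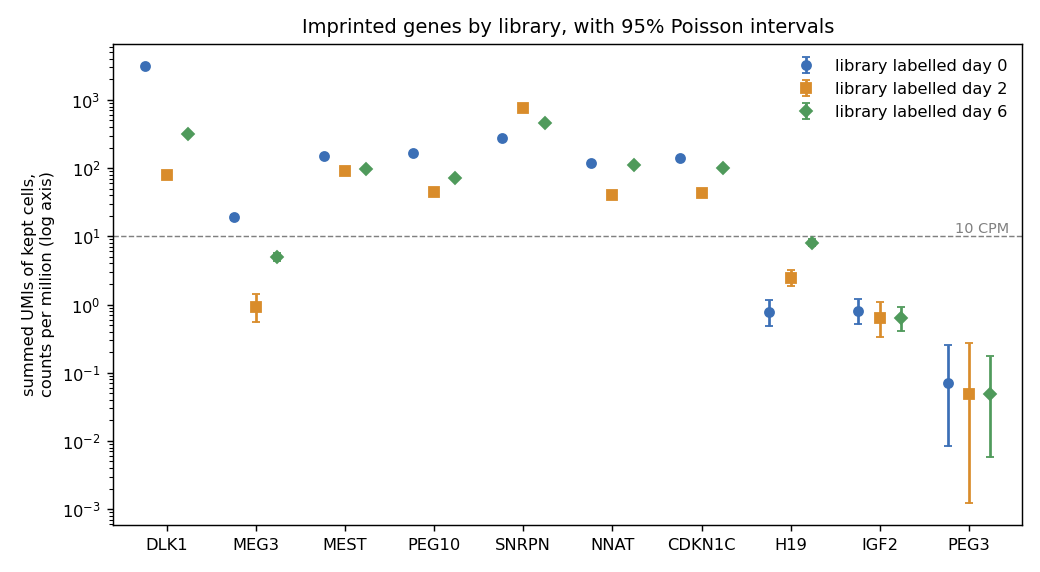
CPM (log axis) of the 10 imprinted genes, with 1 point per library in the order labelled day 0, day 2, day 6 and bars for exact 95% Poisson intervals. DLK1 spans 3137 to 79.5 CPM, SNRPN alone among the genes above 10 CPM is highest in the labelled day 2 library, and IGF2 and PEG3 have overlapping intervals in all 3 libraries.

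DLK1 differed most between libraries. It had 3137 CPM (3117 to 3158) in the labelled day 0 library, 79.5 CPM (75.7 to 83.5) in the labelled day 2 library and 315 CPM (309.5 to 320.4) in the labelled day 6 library. The underlying counts were 88916, 1640 and 12996 UMIs. No 2 of these intervals overlapped, and the order of the 3 libraries for DLK1 was the order of PAX6 and of the summed neural progenitor markers, whose part in the difference was not tested. The level in the labelled day 2 library was 0.0253 times that in the labelled day 0 library (0.0241 to 0.0266), and the labelled day 6 library had 3.96 times the level of the labelled day 2 library (3.76 to 4.17). Against labelled day 0, the labelled day 6 library stood at 0.1004 times (0.0985 to 0.102). With CPM averaged over single cells, the ratio of labelled day 6 over day 2 was 2.24, and leaving out a few cells moved all 3 ratios, as described further on.

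MEG3, the maternal non-coding RNA beside DLK1, had the same order of libraries at a lower count. From 542, 19 and 207 UMIs in the labelled day 0, 2 and 6 libraries it came to 19.1 CPM (interval 17.5 to 20.8), 0.921 CPM (interval 0.555 to 1.44) and 5.02 CPM (interval 4.36 to 5.75). The ratio of labelled day 2 over day 0 was 0.0482 (0.0288 to 0.0760), and that of labelled day 6 over day 0 was 0.262 (0.222 to 0.308). Between the labelled day 6 and 2 libraries the ratio was 5.45 (3.40 to 9.23), with both levels below 10 CPM. In cells with at most 10% mitochondrial UMIs the MEG3 ratio of labelled day 2 over day 0 was 0.0955, and without cells in clusters mostly of another library it was 0.0231. Other transcripts of the cluster were sparse. MEG8, a further maternal non-coding RNA, had 79, 3 and 58 UMIs in the labelled day 0, 2 and 6 libraries, and DIO3, the gene of a thyroid hormone deiodinase, had 80, 12 and 36. RTL1, the retrotransposon-derived gene of the cluster, had 1 UMI in the labelled day 0 library and none in the other 2, where 3 UMIs would be 0.145 and 0.0727 CPM. MEG9, a further non-coding RNA, had 2, 3 and 5 UMIs, too few for an order. DLK1, MEG3, MEG8 and DIO3, from both parental classes, were highest in the labelled day 0 library and lowest in the labelled day 2 library. MEG8 and DIO3 were below 10 CPM in every library, and the DIO3 intervals of the labelled day 6 and 2 libraries overlapped. The share of all genes with this order was not counted. PEG10, SGCE, CDKN1C and KCNQ1OT1, outside this cluster, had it too.

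SNRPN had the opposite order. It was at 276 CPM (269 to 282) in the labelled day 0 library, 763 CPM (752 to 775) in the labelled day 2 library and 455 CPM (449 to 462) in the labelled day 6 library. The ratio of labelled day 2 over day 0 was 2.77 (2.70 to 2.85), that of day 6 over day 2 was 0.596 (0.584 to 0.609), and that of day 6 over day 0 was 1.65 (1.61 to 1.70). Among members above 10 CPM, SNRPN alone was higher in the labelled day 2 library than in both others. SNHG14, the long host transcript that continues downstream on the same strand, was at 296, 566 and 458 CPM in the labelled day 0, 2 and 6 libraries. Its ratio of labelled day 2 over day 0 was 1.91 (1.86 to 1.97), just under 2-fold. SNURF, which overlaps SNRPN, had 8, 6 and 4 UMIs, and reads from such overlapping genes may have been split between them or dropped by the counting. NDN, necdin, a paternally expressed gene of the same chromosomal region, did not share this order, with 55.7, 34.5 and 83.9 CPM. The 3 genes SNRPB, SNRPB2 and SNRPD1, which encode other spliceosomal proteins, all stayed within 2-fold in every comparison. SNRPB, the closest of these to SNRPN, had 354, 457 and 360.2 CPM.

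PEG10 and MEST were highest in the labelled day 0 library. For the labelled day 0, 2 and 6 libraries, PEG10 had 167 CPM (163 to 172), 45.1 CPM (42.2 to 48.1) and 71.6 CPM (69.0 to 74.2). Its ratio was 0.269 (0.251 to 0.289) for labelled day 2 over day 0, 1.59 (1.47 to 1.71) for day 6 over day 2 and 0.428 (0.408 to 0.448) for day 6 over day 0. The last of these was 0.516 with CPM averaged over single cells, short of the 2-fold limit. SGCE, the paternally expressed sarcoglycan gene that meets PEG10 head to head, had the same order at 58.7, 30.01 and 43.4 CPM. MEST had, in that order, 151 CPM (147 to 156), 91.5 CPM (87.4 to 95.7) and 96.1 CPM (93.1 to 99.1). The labelled day 6 and 2 libraries did not differ in MEST beyond counting error, with a ratio of 1.05 (0.994 to 1.11). Against labelled day 0, MEST was at 0.605 times (0.573 to 0.639) in the labelled day 2 library and 0.636 times (0.609 to 0.664) in the labelled day 6 library. The ratio of labelled day 2 over day 0 was 0.486 with all deposited barcodes and 0.496 with no mitochondrial limit, both past 2-fold. COPG2, a coat protein subunit gene that overlaps MEST on the opposite strand, had 10427, 1353 and 2807 UMIs. The strand setting is not given in the sources used here. Reads from the overlap may therefore have been counted for the wrong gene or dropped. The same limit holds for PEG10 and SGCE and for NNAT and BLCAP, which also overlap on opposite strands.

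NNAT and CDKN1C were lowest in the labelled day 2 library. Across the labelled day 0, 2 and 6 libraries, NNAT had 119 CPM (115 to 123), 40.7 CPM (38.0 to 43.5) and 113 CPM (109 to 116). The labelled day 6 library had 2.77 times the NNAT level of the labelled day 2 library (2.57 to 2.98) and 0.947 times that of labelled day 0 (0.906 to 0.991), so its levels in the labelled day 6 and 0 libraries lay close together. BLCAP, the gene around NNAT on the other strand, did not follow it, with 18.0, 21.3 and 34.0 CPM. CDKN1C had 141 CPM (137 to 145), 43.1 CPM (40.3 to 46.0) and 99.8 CPM (96.7 to 102.9). It stood at 0.306 times the labelled day 0 level in the labelled day 2 library (0.284 to 0.329) and at 0.707 times in the labelled day 6 library (0.677 to 0.739), and labelled day 6 over day 2 gave 2.31 (2.15 to 2.49). KCNQ1OT1, the paternal non-coding RNA of the CDKN1C domain, was at 51.5, 26.1 and 39.9 CPM and thus had the same order as CDKN1C.

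H19, IGF2 and PEG3 were sparse. H19 had 22, 51 and 334 UMIs in the labelled day 0, 2 and 6 libraries, which is 0.776 CPM (0.486 to 1.18), 2.47 CPM (1.84 to 3.25) and 8.09 CPM (7.25 to 9.01). These intervals did not overlap, and the labelled day 6 library had 10.4 times the H19 level of the labelled day 0 library (6.77 to 16.9). This is the only member whose highest level was in the labelled day 6 library. IGF2, the neighbour of H19 on the paternal copy, had 23, 13 and 26 UMIs, at 0.812, 0.630 and 0.630 CPM, with a ratio of labelled day 6 over day 0 of 0.776 (0.426 to 1.42). A difference in IGF2 between libraries was not detectable at this depth. PEG3 had 2, 1 and 2 UMIs, below the 3 UMIs set as a floor, and no ratio is read from them.

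**Figure D2:**
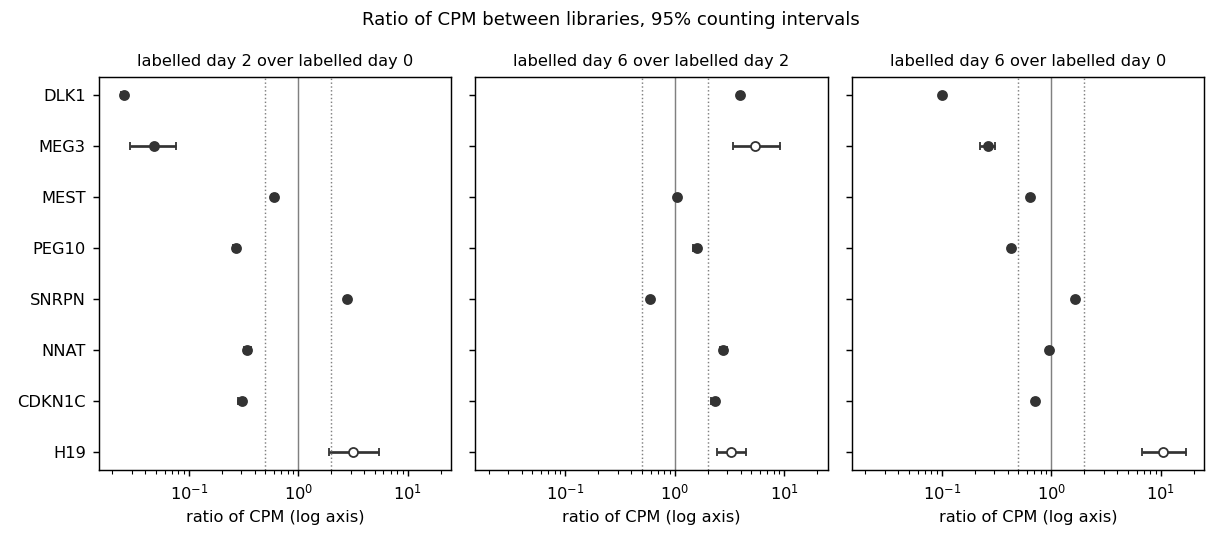
Ratio of CPM between 2 libraries for 8 members, leaving out IGF2 and PEG3 (log axis, bars for exact conditional binomial 95% intervals, dotted lines at 0.5 and 2, open symbols for genes below 10 CPM in both libraries). DLK1 lies farthest from 1 for labelled day 2 over day 0, at 0.0253, and SNRPN is the filled symbol above 2 there, at 2.77.

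Counted together, the members were mostly lower in the labelled day 2 library than in the labelled day 0 library. Of 7 measured members 5 were at most 0.5 times (DLK1, MEG3, CDKN1C, PEG10 and NNAT), against 10.2% of 10160 genes, and 1 was at least 2-fold higher (SNRPN), against 10.1%. MEST lay between. The median log2 ratio of the members was -1.71, beside 0.01 for all genes measured. For labelled day 6 over day 2, 3 of 6 measured members were at least 2-fold higher (DLK1, CDKN1C and NNAT), against 8.3% of 10178 genes, and 0 were at most 0.5 times, against 6.32%. The median was 0.94, beside 0.12 for all genes. For labelled day 6 over day 0, 0 of 7 were at least 2-fold higher, against 9.94% of 10078 genes, and 3 were at most 0.5 times (DLK1, MEG3 and PEG10), against 6.09%. The median there was -0.65, beside 0.11 for all genes. Each library enters 2 of these 3 comparisons, so the counts are not independent of each other. The members were chosen with earlier results of these data known, so the counts describe this list and are no test of imprinted genes.

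Both parental classes held genes that were lower in the labelled day 2 library. Among the 5 measured paternally expressed members, 3 were at most 0.5 times in the labelled day 2 library relative to the labelled day 0 library, against 10.2% of all genes measured. SNRPN was at least 2-fold higher, against 10.1%. Of the maternally expressed members, MEG3 and CDKN1C, the 2 measured ones, were both at most 0.5 times, against the same 10.2%. Counts of 5 and 2 chosen genes are no result about the parental classes.

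Of a wider list of 40 known imprinted genes, 39 were found and 15 were measured for labelled day 2 over day 0, the others lying below 10 CPM in both libraries. NLRP2 alone of the 15 was at least 2-fold higher, against 10.1% of all genes measured, and PLAGL1, ZDBF2 and PPP1R9A were at most 0.5 times, against 10.2%. The other 11 lay between, and the median log2 ratio of all 15 was -0.63. The genes at most 0.5 times numbered 5 with TMM scaling, for which no share of all genes was taken. For labelled day 6 over day 2, NDN and OSBPL5 were at least 2-fold higher of 15 measured, against 8.3% of all genes, and 0 were at most 0.5 times, against 6.32%. For labelled day 6 over day 0, NLRP2 was higher and PLAGL1 lower of 16 measured, against 9.94% and 6.09% of all genes, and 14 lay between. PPP1R9A, a neuronal actin-binding protein gene near PEG10, had 72.4, 26.7 and 44.5 CPM in the labelled day 0, 2 and 6 libraries. PPP1R9A thus had the order of PEG10 and SGCE. Among the most abundant imprinted genes, GNAS, the stimulatory G protein alpha subunit, had 1730, 1117 and 1546 CPM and stayed within 2-fold in all 3 comparisons. GRB10, an adaptor of insulin receptor signalling, had 36.4, 67.5 and 58.4 CPM.

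Of 12 listed genes that maintain imprints, 9 were measured, and 0 of them passed 2-fold in either direction for labelled day 2 over day 0 or for day 6 over day 0. Beside the shares of all genes past 2-fold, given above, a count of 0 among 9 is no result about these genes. For labelled day 6 over day 2, UHRF1, the factor that guides DNMT1 to replicating DNA, stood at 2.55 times (2.29 to 2.85). It was the 1 gene of 9 past 2-fold, against 8.3% of all genes measured that were higher, so this count is near that share. TRIM28, the corepressor of imprint-binding zinc finger proteins, had 263, 427 and 460.4 CPM. Of its 2 best-known partners at imprints, ZNF445 had 20.8, 12.8 and 25.01 CPM, and ZFP57 had 4, 10 and 10 UMIs. DNMT1, the maintenance methyltransferase, had 124, 107 and 123 CPM.

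Partners of the members differed in places. IGF2R, the receptor that clears IGF2, had 71.8, 86.6 and 84.3 CPM, while IGF1R, which signals for IGF2, had 107, 88.2 and 133 CPM. The IGF2 mRNA-binding proteins IGF2BP1, IGF2BP2 and IGF2BP3 were all above 100 CPM in each library although IGF2 was below 1 CPM. IGFBP5, a secreted binding protein for IGFs, followed the order of DLK1 with 136, 5.19 and 46.2 CPM, and it was the only 1 of 10 measured genes in the IGF2 pathway list that was at most 0.5 times for labelled day 2 over day 0. In the list of 9 genes around DLK1 and Notch, of which 8 were measured, NOTCH2, DLL1, JAG1 and HES5 were at most 0.5 times and DLL3 was at least 2-fold higher in the labelled day 2 library relative to the labelled day 0 library. The shares over all genes measured were 10.2% for the lower call and 10.1% for the higher one, so the IGF2 pathway count is near that share. HES5, a Notch target of neural progenitors, had 32.7, 3.73 and 7.03 CPM. DLK2, the relative of DLK1, had only 5, 5 and 25 UMIs. Of the other kinase inhibitors, CDKN1A, p21, had 62.3, 4.95 and 4.63 CPM, whereas CDKN1B, p27, had 34.3, 20.9 and 23.6 CPM and stayed within 2-fold in every comparison.

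In single cells, DLK1 was nearly ubiquitous in 1 library and rare in another. To compare shares at equal depth, each cell was thinned to 1000 UMIs. After thinning, DLK1 was detected in 90.7% of cells (89.4% to 91.8%) of the labelled day 0 library, in 2.89% (2.26% to 3.64%) of the labelled day 2 library and in 14.4% (13.4% to 15.5%) of the labelled day 6 library. Before thinning the shares were 99.2%, 7.52% and 45.8%. For reference, 12 genes of tissues absent from the culture had medians of 0.0437%, 0% and 0.0239% after thinning, and the highest, ACTA1, had 1.75%, 0.703% and 1.63%. DLK1 had a higher share than ACTA1 in each library. As ACTA1 reached 58 and 84 UMIs in single cells of the labelled day 0 and 6 libraries, its share is no pure measure of free RNA, and the free RNA of DLK1 was not measured. Cells with 5 or more DLK1 UMIs per 1000 made up 26.9%, 0.909% and 1.08% of cells in the labelled day 0, 2 and 6 libraries.

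**Figure D3:**
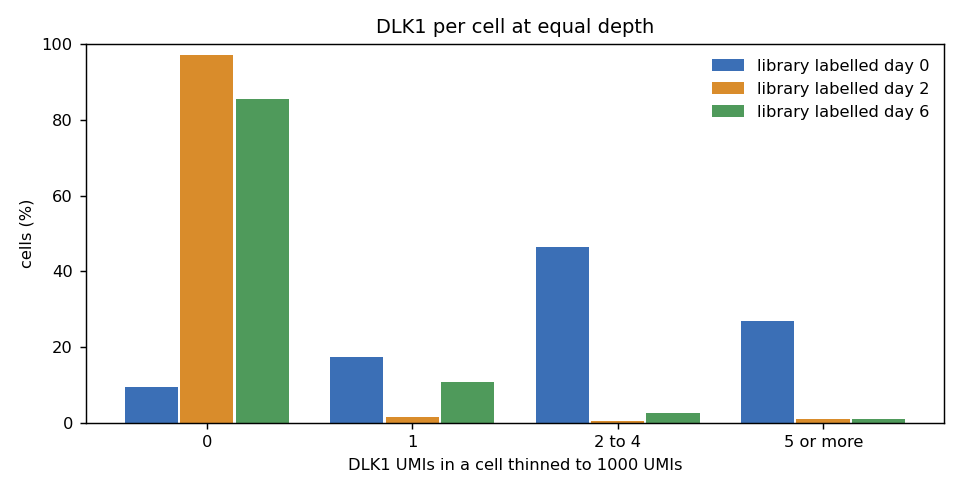
Share of kept cells (%) by the number of DLK1 UMIs after thinning each cell to 1000 UMIs, with 1 bar per library. In the labelled day 0 library the largest class is 2 to 4 UMIs (46.4% of cells), whereas 97.1% of cells labelled day 2 and 85.6% of cells labelled day 6 have none.

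SNRPN, by contrast, was found in most cells of the labelled day 2 library. Its thinned shares were 24.4% (22.6% to 26.2%), 57.3% (55.3% to 59.2%) and 38.7% (37.2% to 40.2%) in the labelled day 0, 2 and 6 libraries. The unthinned shares were 80.3%, 89.2% and 80.9%. The order at equal depth was that of the CPM.

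The remaining members above 10 CPM were detected in a minority of cells at this depth. CDKN1C was found in 12.4%, 4.22% and 10.4% of thinned cells, NNAT in 11.8%, 3.89% and 11.96%, PEG10 in 14.9%, 4.96% and 8.23%, and MEST in 15.5%, 10.7% and 10.3%. For CDKN1C, NNAT and PEG10 the lowest share was in the labelled day 2 library. For MEST the intervals of the labelled day 6 and 2 libraries overlapped, at 9.43% to 11.3% and 9.54% to 12.1%. MEG3 was found in 1.44%, 0.124% and 0.311% of thinned cells, H19 in 0.0873%, 0.165% and 0.550%, and IGF2 in 0.131%, 0.0827% and 0.0239%. These shares lay below that of ACTA1 in the same library, and the single-cell shares of MEG3, H19 and IGF2 are not read as expression per cell. PEG3 was found in 0 thinned cells. With 3 cells as the limit that a count of 0 allows, its share of cells with a UMI could reach 0.131%, 0.124% and 0.0718%, and the upper Clopper-Pearson bounds were 0.161%, 0.152% and 0.0882%.

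Spread between cells was measured as the Fano factor, the variance over the mean of UMIs per thinned cell, which is 1 for counting noise alone. It was also measured as the squared coefficient of variation beyond Poisson, which removes the part due to counting. DLK1 had Fano factors of 2.09, 9.72 and 5.34 in the labelled day 0, 2 and 6 libraries, beside medians of 1.03, 1.05 and 1.03 over all genes of at least 10 CPM. Its squared variation beyond Poisson was 0.324, 72.0 and 15.4, beside medians of 0.375, 0.762 and 0.575. In the labelled day 0 library DLK1 was thus close to the median gene in squared variation beyond Poisson, at percentile 47.6. By Fano factor it was at percentile 99.8 there. DLK1 was rank 34 by level in that library, so nearly all genes compared were less abundant. In the other 2 libraries it lay far above the median by both measures. The 5% of cells with most DLK1 UMIs held 20.9% of them in the labelled day 0 library, 96.3% in the labelled day 2 library and 64.3% in the labelled day 6 library. Put as cells, 50% of the DLK1 UMIs lay in 406 of 2290, 9 of 2419 and 86 of 4180 cells.

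NNAT and CDKN1C also varied most in the labelled day 2 library. The squared variation beyond Poisson of NNAT was 1.31, 21.0 and 1.28, and that of CDKN1C was 1.40, 12.02 and 1.28. SNRPN had 0.325, 0.0652 and 0.164, and MEST 0.405, 0.0198 and 0.143, near the median of all genes in the labelled day 0 library and below it in the labelled day 2 and 6 libraries. PEG10 lay between 0.267 and 0.391. Thinned to 2000 UMIs per cell, NNAT had 0.778, 11.8 and 1.83 and CDKN1C 1.39, 6.22 and 2.88, still highest in the labelled day 2 library. SNRPN then had 0.0651, 0.127 and 0.137, MEST 0.158, 0.246 and 0.456, and PEG10 0.507, 1.198 and 0.619, so no order of the libraries is read for these 3 genes. Values of a gene with few UMIs after thinning rest on few cells, since 94 cells labelled day 2 had an NNAT UMI and 102 a CDKN1C UMI.

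**Figure D4:**
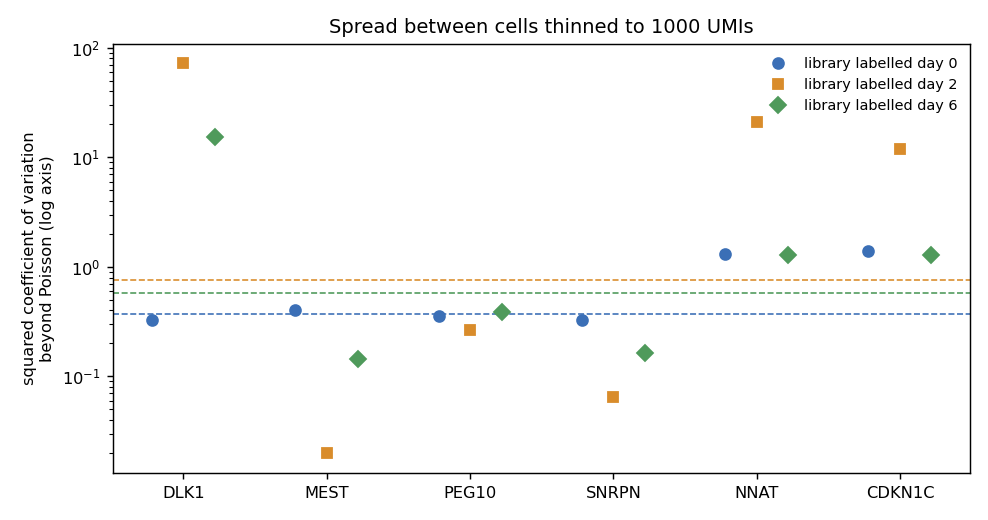
Squared coefficient of variation beyond Poisson (log axis) of UMIs per cell thinned to 1000 UMIs, for 6 members in 3 libraries, with dashed lines at the median of all genes of at least 10 CPM in each library. DLK1, NNAT and CDKN1C reach 72.0, 21.0 and 12.02 in the labelled day 2 library, while MEST and SNRPN lie below the median there.

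Few cells accounted for most DLK1 in the labelled day 2 library. When all cells were clustered without the 10 genes, each of 6 clusters drew at least 93.4% of its cells from 1 library, 2 clusters per library. In the labelled day 2 library, 41 of 2419 cells fell into clusters made mostly of another library, and they held 71.9% of its DLK1 UMIs. Those 41 cells had 5568 CPM of DLK1 (5255 to 5896), against 22.6 CPM (20.6 to 24.7) in the other 2378 cells. In the labelled day 6 library, 164 of 4180 cells held 44.7% of DLK1 UMIs, at 4423 CPM (4310 to 4538), against 180.02 CPM (176 to 184) in the other 4016. Only 3 cells labelled day 0 fell into clusters of another library.

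Other members were also unevenly split. Within the labelled day 2 library, NNAT had 633 CPM (530.3 to 749.6) in the 41 cells and 34.5 CPM (32.03 to 37.2) in the others, and CDKN1C had 241 CPM (179 to 317) and 41.0 CPM (38.3 to 43.9). SNRPN was lower in the 41 cells, at 307 CPM (237 to 391), than in the others, at 768 CPM (756 to 780.3). The 41 cells held 10 of the 19 MEG3 UMIs of that library. Summed over the 41 cells, POU5F1 was at 194 CPM and PAX6 at 217 CPM, beside 1240 and 4.46 CPM in the other cells of the library. Of the 41, 34 and 1 lay in the clusters mostly of labelled day 0, and 6 in a cluster mostly of labelled day 6. In the 164 cells labelled day 6, POU5F1 was at 228 CPM and PAX6 at 245 CPM, beside 269.8 and 20.8 CPM. Of the 164, 96 and 16 lay in the clusters mostly of labelled day 0, and 8 and 44 in those mostly of labelled day 2. POU5F1 was detected in 63 of the 164 cells and PAX6 in 69. These sums pool cells of different clusters and do not show both markers in the same cell. Whether the 41 and 164 cells are doublets or cells of another library was not tested.

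**Figure D5:**
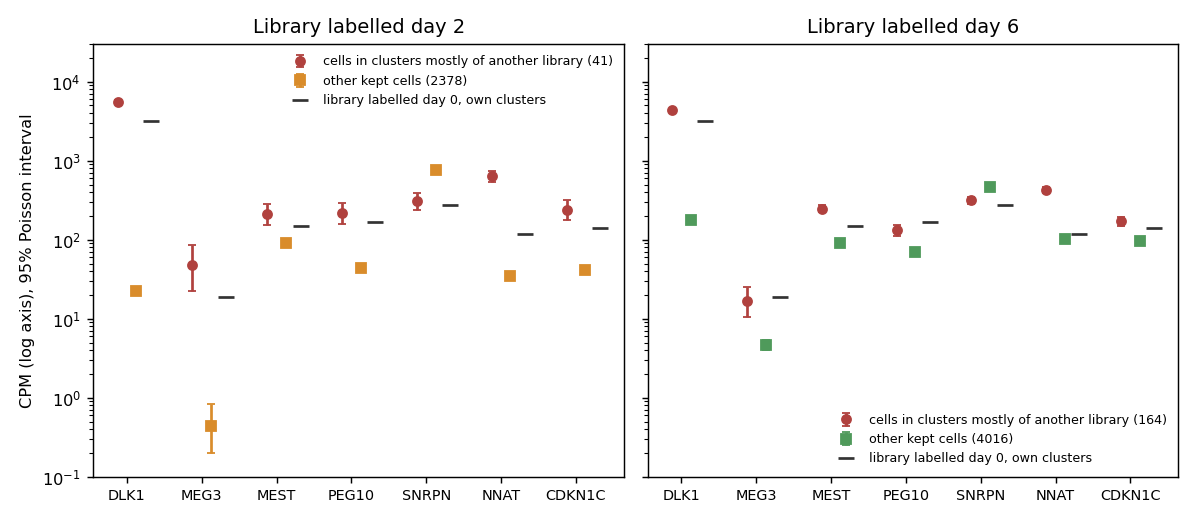
CPM (log axis) of 7 members in cells that cluster with another library (left point of each gene) and in the other kept cells (middle point), for the labelled day 2 and 6 libraries, with exact 95% Poisson intervals. Horizontal marks give the level in cells of the labelled day 0 library that lie in its own clusters, and DLK1 in the 41 and 164 cells lies at 5568 and 4423 CPM, above the mark at 3138 CPM.

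Without these cells the differences in DLK1 were larger. Labelled day 2 over day 0 became 0.00720 (0.00655 to 0.00789), labelled day 6 over day 2 became 7.97 (7.25 to 8.78) and labelled day 6 over day 0 became 0.0574 (0.0560 to 0.0588). MEG3 became 0.0231 times for labelled day 2 over day 0 (0.0105 to 0.0442). The spread of DLK1 in the labelled day 6 library fell to 2.23 in squared variation beyond Poisson without the 164 cells, against 15.4 with them. For the labelled day 2 library it was 67.1 without the 41 cells, so by this measure DLK1 was also uneven among the cells that cluster with their own library. That value rests on few cells, since 461 DLK1 UMIs in 151 of these 2378 cells remained before thinning. CDKN1C in the labelled day 2 library had 4.21 without the 41 cells, against 12.02 with them, and NNAT had 28.4, against 21.0.

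Each library had a cluster of shallow cells with few mitochondrial UMIs (medians of 1.34% to 2.84%) and one of deep cells (medians of 13.4% to 15.3%). The median UMIs were 2500 against 11934 in the labelled day 0 library, 2515 against 13434 in the labelled day 2 library and 2164 against 14846 in the labelled day 6 library. PEG10 was higher in the shallow than in the deep cluster of every library, by 1.75, 1.44 and 1.79 times. MEST was higher by 1.69, 1.70 and 1.38 times, SNRPN by 1.30, 1.56 and 1.33 times, and NNAT by 1.65, 1.36 and 1.34 times. CDKN1C was at 1.23, 1.02 and 1.37 times, with an interval of 0.877 to 1.19 in the labelled day 2 library. None of these ratios reached 2-fold. Over all genes of at least 10 CPM, the median log2 ratio of shallow over deep was 0.0714, 0.0698 and 0.0629. Of those genes, 2.04%, 0.559% and 0.316% were at least 2-fold higher in the shallow cluster, and 17.2%, 16.3% and 12.1% were at most 0.5 times. MEG3 went the other way in the labelled day 0 and 6 libraries, at 0.281 times (0.128 to 0.538) and 0.255 times (0.115 to 0.495). DLK1 was similar in both clusters of the labelled day 0 and 2 libraries, with ratios of 1.16 and 0.962, and lower in the shallow cluster labelled day 6, at 0.580 times. In cells with at least 5% mitochondrial UMIs alone, DLK1 stood at 0.0298 times for labelled day 2 over day 0 and SNRPN at 2.45 times.

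Across cells of 1 library, few genes followed a member closely. Correlations are Pearson's r of log-scaled counts over kept cells, with depth and free RNA in common. DLK1 went with PRSS23, a secreted protease, in the labelled day 0 library (r = 0.285, 2290 cells). In the labelled day 2 library it went with SMOC1, a secreted matrix protein (r = 0.450), PRTG, an early neural surface receptor (r = 0.345), and FZD5, a Wnt receptor (r = 0.294), over 2419 cells. Without the 41 cells no gene reached 0.2 there, and SMOC1 stood at 0.156. In the labelled day 6 library DLK1 went with CDH2, N-cadherin (r = 0.318), PRTG (0.310) and EFNA5, an ephrin (0.308), over 4180 cells. Without the 164 cells the leading genes were NKAIN3 (0.295), the ephrin receptor EPHA4 (0.266) and EFNA5 (0.259). Between DLK1 and the UMIs of the cell, r was 0.251 over all kept cells of that library and 0.263 without the 164 cells.

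Such genes were sought only for members with at least 50 CPM in the library, in the labelled day 2 library DLK1, SNRPN and MEST. Among these other members, 2 pairs reached 0.2. They were PEG10 with PTMA in the labelled day 0 library (r = 0.212) and SNRPN with ACTB in the labelled day 2 library (r = 0.20, or 0.180 without the 41 cells). MEG3, H19, IGF2 and PEG3 were not searched in any library. Neighbours in a cluster were weakly related. DLK1 and MEG3 had r = 0.0987, 0.194 and 0.153 in the labelled day 0, 2 and 6 libraries, and r = -0.00916 labelled day 2 without the 41 cells. SNRPN and SNHG14 had r = 0.0828, 0.0156 and 0.0453, and MEST and COPG2 had r = 0.0296, 0.0428 and 0.103. In counts as sparse as these, such weak values are no finding about the genes.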

How the data were processed

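Single-cell RNA of H9 cells was counted in 3 libraries, 1 per labelled day. The authors deposited whole-number counts per gene and barcode, taken here as UMI counts because the labels' protocol uses UMIs. The submitters' processing notes name STAR, without a version, and hg38. The annotation, the filter on barcodes, the collapsing of duplicate reads and the use of strand are not stated in the labels or notes, and the sample letters A, B and A have no explanation.

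The filter on cells asked for 1000 or more UMIs, 500 or more genes and no more than 25% mitochondrial UMIs. UMIs were summed per library and scaled to CPM, with exact Poisson intervals for levels, exact conditional binomial intervals for ratios and Clopper-Pearson intervals for shares, all at 95%. These cover counting error only. A floor was set at 3 UMIs, which is 0.106, 0.145 and 0.0727 CPM in the labelled day 0, 2 and 6 libraries. Intervals and thinning were tested on simulated data with known ratios. Kept cells were clustered without the members (scanpy 1.11.5, igraph 0.11.9, 2000 variable genes, 30 principal components, 15 neighbours, Leiden resolution 0.5). Doublets were kept, with removal of the 5% of cells with most UMIs as an alternative. Positions came from GENCODE 29, sequences from RefSeq. Other imprinted genes were named if they had at least 50 CPM in 1 library of a pair and an interval wholly beyond 2-fold. Likeness was sought for members with at least 50 CPM in the library. It needed r of at least 0.2 among genes in at least 10% of cells, and at most 3 genes per member and library. NLRP2, PLAGL1, ZDBF2, OSBPL5, GNAS and GRB10 were named after their values were seen.

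Alternatives were other cell filters, other scalings (mean CPM over single cells, totals that omit mitochondrial and ribosomal protein genes, median-of-ratios factors, and TMM from edgeR 4.0.16), other minimum levels and other thinning. Leaving out cells whose barcode is also kept in another library was added after seeing the data. The members, lists and comparisons were chosen with earlier results of these data known.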

Additional observations from a re-analysis of the deposited data

How the results depend on the processing

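No ratio of a member above 10 CPM that was called past 2-fold changed direction under 13 alternatives, and DLK1, MEG3, CDKN1C, SNRPN and NNAT stayed on the same side of 2-fold in each comparison. MEST reached 0.486 times for labelled day 2 over day 0 with all deposited barcodes and 0.496 with no mitochondrial limit, and PEG10 stood at 0.516 times for labelled day 6 over day 0 with CPM averaged over single cells; the cause was not tested. DLK1 ranged from 0.00720 to 0.0370 between labelled day 2 and 0 and from 2.24 to 7.97 between day 6 and 2. With no minimum level beyond 1 UMI, more sparse genes enter. The members at least 2-fold higher were then 2 between labelled day 2 and 0, 5 between day 6 and 2 and 1 (H19) between day 6 and 0. The last was also 1 with totals without mitochondrial and ribosomal protein genes. No share of all genes was taken at these settings, so the counts are no result about the members.

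The wider list of imprinted genes, with few calls, depended more on the settings, and the cause was not tested. Shares of all genes were taken only with the main filter, scaling and minimum of 10 CPM. Another minimum also changes how many genes are measured. The counts below therefore have no share beside them, cannot be set against each other, and are no result about these genes. At most 0.5 times for labelled day 2 over day 0 were 5 genes with at most 10% mitochondrial UMIs, without the 5% of cells with most UMIs, with TMM factors and with size factors. With a minimum of 50 CPM it was 1, and with none 11. At least 2-fold higher there were 2 in cells with at least 5% mitochondrial UMIs and with totals without mitochondrial and ribosomal protein genes, 0 at 50 CPM and 7 with no minimum. Between labelled day 6 and 2, 6 were higher with at most 10% mitochondrial UMIs, 1 at 50 CPM and 5 with no minimum, and 2 were lower with the reduced totals and 9 with no minimum. Between labelled day 6 and 0, 0 were higher at 50 CPM and 5 with no minimum, and 2 were lower with at most 10% mitochondrial UMIs, 0 at 50 CPM and 10 with no minimum. The median log2 ratio of all genes for labelled day 2 over day 0 was 0.01, and -0.12 with no mitochondrial limit and -0.14 with all barcodes.

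No paired analysis was possible because there is 1 library per labelled day. At 2000 UMIs per cell, 254, 644 and 1063 cells were left out, and the Fano factor of DLK1 was 3.06, 16.5 and 9.55. Of 27 values of squared variation beyond Poisson, 24 moved by more than 10%, and those of DLK1 were 0.313, 54.9 and 13.8. Depth limits H19, IGF2, PEG3 and MEG3, whose levels rest on 1 to 542 UMIs. For IGF2, PEG3 and MEG3, genes that overlap them on the same strand may also have cost reads, which was not tested.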
